A study of Drosophila melanogaster with 6 samples.

Results

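The genes described here make, load, take up and recycle glutamate and GABA, the main fast transmitters besides acetylcholine and histamine in the fly head. They were chosen by name as 9 genes: Gad1, VGlut, VGAT, Gat, Eaat1, Eaat2, Gs1, Gs2 and Gdh. Every probe set whose symbol in the platform's probe table was one of these names was taken, which gave 9 probe sets for 8 genes, of 18769 probe sets and 11982 named genes in all. No probe set carries the symbol of Eaat1 in that table, so this glial glutamate transporter was not analysed here. The uptake and glutamine synthesis side of the comparison thus rests on 4 genes, and the cells that express them were not measured.

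RNA came from whole heads of adult Drosophila melanogaster, 3 arrays from flies aged 25 days and 3 from flies aged 2 days, hybridised to Affymetrix arrays. All flies were of the strain background W* and carried P{GawB}elavC155, an insertion in the neuronal gene elav that expresses the yeast activator GAL4, and they were kept at 25°C in a cycle of light and dark. The labels give neither the sex nor the number of flies, and do not state whether the 3 arrays of an age stem from separate batches of flies, so the p-values speak to array-to-array spread alone, part or all of which may be technical. Values are RMA levels on the log2 scale, where a step of 1 is a doubling; a level below 4.92, the median of all probe sets, lies near background. In such whole heads, fewer cells of a type and less RNA per cell cannot be told apart.

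As background, glutamate decarboxylase (Gad1) turns glutamate into GABA in GABA neurons, and the vesicular transporters VGlut and VGAT load glutamate and GABA into synaptic vesicles. After release, the transmitters are cleared in the fly brain largely by glia, through the GABA transporter Gat and the excitatory amino acid transporters. Glutamine synthetase joins ammonia to glutamate to give glutamine (Gs1 encodes the mitochondrial and Gs2 the cytosolic enzyme), and glutamate dehydrogenase (Gdh) oxidises glutamate to feed the citric acid cycle.

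Aged heads had lower levels of 4 of the 8 measured genes than young heads: Gdh fell 1.59-fold, Gad1 1.51-fold, VGAT 1.38-fold and Gs2 1.30-fold. The other 4 did not pass the test (limma over all probe sets, Benjamini-Hochberg adjusted p under 0.05). Gat, Gs1 and Eaat2 were measured 0.33, 0.20 and 0.17 lower on the log2 scale in aged heads, and VGlut was the one gene measured higher, by 0.98. Among all named genes 26.5% passed, 10.7% lower and 15.8% higher in aged heads. With probe sets below the median level left out, 2847 passed higher and 1678 lower, against 2438 and 1633 of all probe sets. Under that filter 6 of the 8 genes passed lower and 1 higher. All 8 genes lie above that level, so the shares over all genes may understate those at their level. At an unadjusted limma p under 0.05, 7 of the 8 genes were lower and 1 was higher, where 41.2% of all genes reach that p.

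**Figure D1:**
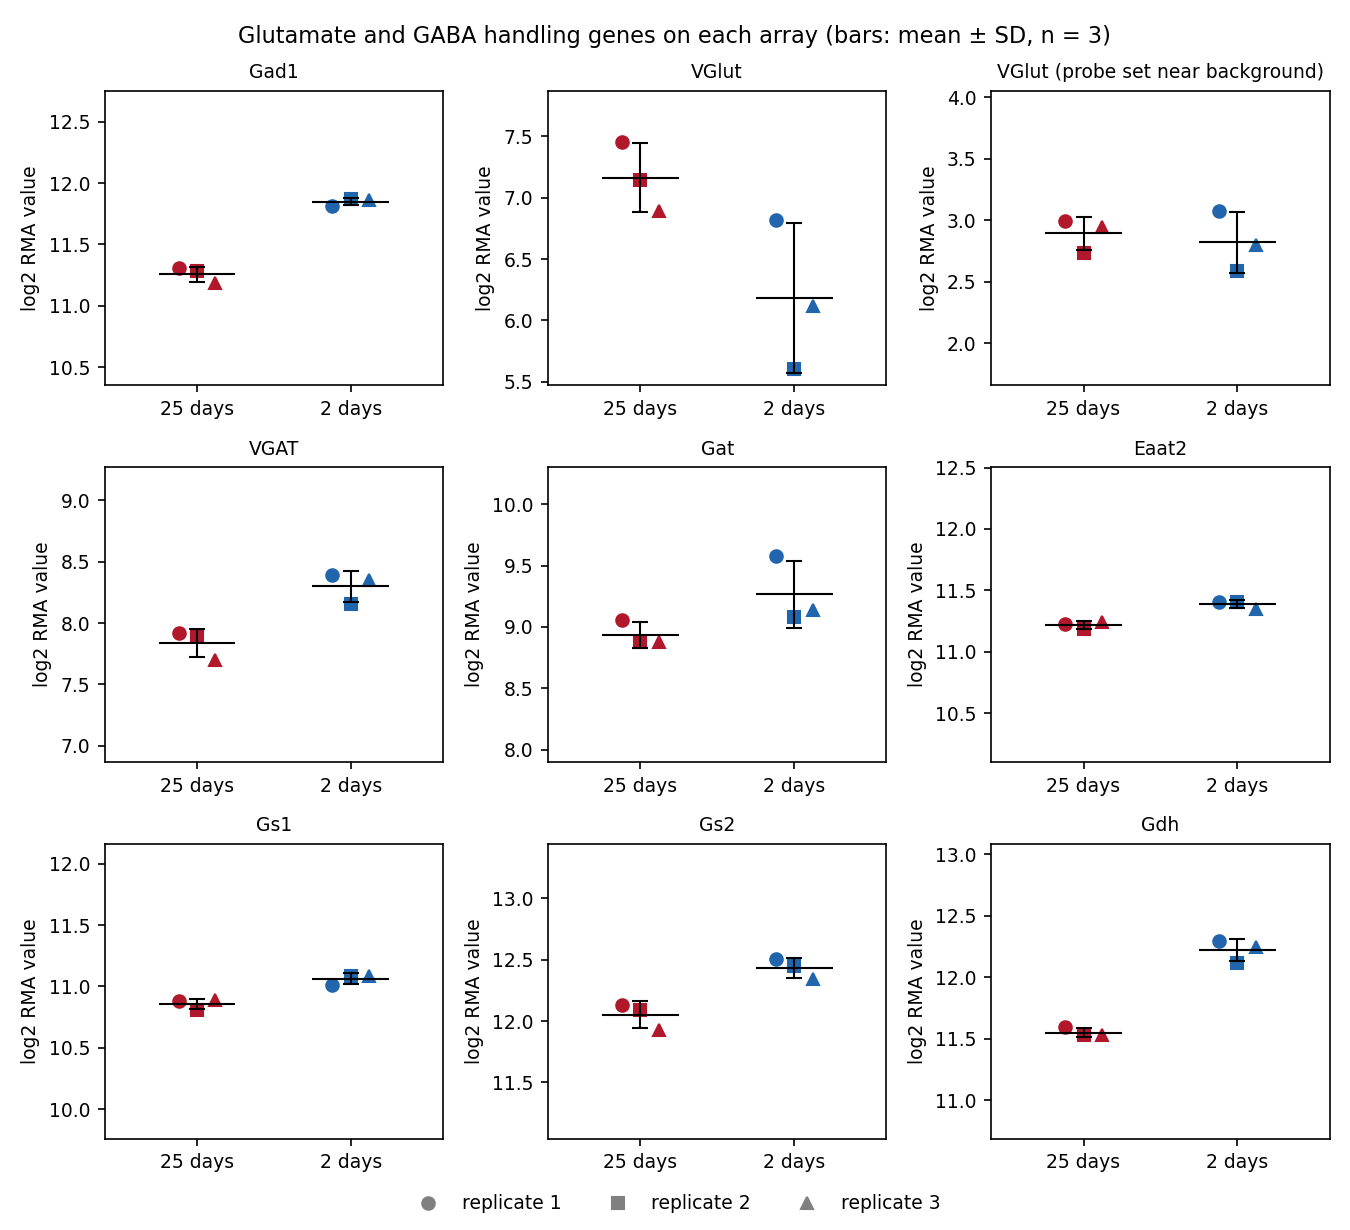
Log2 RMA value of each probe set on each array, 25-day heads in red on the left and 2-day heads in blue on the right; lines and bars are the mean ± SD of 3 arrays, symbols mark the replicate, and every panel spans the same range. The ages lie apart at 8 of the 9 probe sets, VGlut is the one with 25-day arrays on top, and its second probe set overlaps between the ages.

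Gad1 (CG14994), the enzyme that makes GABA, stood at 11.31, 11.28 and 11.19 in aged heads, against 11.81, 11.87 and 11.86 in young heads. All aged arrays were below all young arrays, and the gap was several times the spread within an age. The difference was -0.59 ± 0.07 (log2, aged minus young ± SE, limma adjusted p = 0.00143), with a 95% interval of -0.75 to -0.44. Only 2.79% of all probe sets had a difference as low or lower. The difference lay between -0.64 and -0.55 under 14 other ways of processing the values and passed under all of them (adjusted p up to 0.0146).

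VGAT (CG8394), which fills vesicles with GABA, stood at 7.92, 7.89 and 7.70 in aged heads, against 8.39, 8.16 and 8.35 in young heads. The ages did not overlap, and young replicate 2 was the young array nearest to the aged ones. The difference was -0.46 ± 0.09 (limma adjusted p = 0.0130, 95% interval -0.68 to -0.24). Both genes that define GABA neurons therefore passed in the same direction, and VGAT passed under all 14 alternatives too (adjusted p up to 0.0476).

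VGlut (CG9887), which fills vesicles with glutamate, stood at 7.45, 7.15 and 6.89 in aged heads, against 6.82, 5.60 and 6.11 in young heads. Every aged array was above every young array, but the young arrays were spread over more than a doubling, and the lowest aged array was only just above young replicate 1. The difference was 0.98 ± 0.29, or 1.98-fold, with an interval of 0.30 to 1.67, and it did not pass (limma adjusted p = 0.0511). It passed in 4 of the 14 alternatives, among them without young replicate 1, where it was 1.30 (adjusted p = 0.00925). Without young replicate 2 it was 0.70 (adjusted p = 0.0696).

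A second probe set of VGlut stood at 2.99, 2.74 and 2.95 in aged heads, against 3.08, 2.58 and 2.80 in young heads, well below the median of all probe sets. The ages overlapped there, with a difference of 0.07 ± 0.13 (limma adjusted p = 0.744). The 2 probe sets thus disagree, and the dim one says little about VGlut, since differences near background are compressed. With their mean standing for the gene, the difference was 0.53 (adjusted p = 0.110).

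The difference between VGlut and VGAT within each array changed with age, a comparison chosen after the values were seen and not tested. VGlut minus VGAT was -0.47, -0.74 and -0.81 in aged heads, against -1.57, -2.55 and -2.24 in young heads. The ages could not overlap in this difference, since VGlut was higher and VGAT lower on every aged array than on every young array. Their separation adds nothing to what the 2 genes show singly. Its zero has no meaning, because probe sets differ in how brightly they report the same amount of RNA, and only its change with age, 1.45, can be read.

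Gat (CG1732), the transporter that clears GABA into glia, stood at 9.06, 8.87 and 8.87 in aged heads, against 9.58, 9.08 and 9.14 in young heads. The ages did not overlap, but young replicate 1 lay apart from the other young arrays, and the highest aged array nearly reached the lowest young one. The difference of -0.33 ± 0.14 did not pass (limma adjusted p = 0.131, interval -0.65 to -0.01), nor did it under any of the 14 alternatives. Without young replicate 1 it was -0.18 (adjusted p = 0.193).

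Eaat2 (CG3159), a transporter of the excitatory amino acid family that in flies carries aspartate and taurine in preference to glutamate, stood at 11.23, 11.18 and 11.25 in aged heads, against 11.40, 11.41 and 11.35 in young heads. The arrays of an age lay closer together than for any other of these probe sets, and the ages did not overlap. The difference was small, -0.17 ± 0.06 (limma adjusted p = 0.0925, interval -0.31 to -0.03). It did not pass on all probe sets, but did in 2 of the 14 alternatives, with probe sets below the median level left out (adjusted p = 0.0314) and with a robust prior that follows the level (0.0134).

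Gs1 (CG2718), the mitochondrial glutamine synthetase gene, stood at 10.88, 10.81 and 10.89 in aged heads, against 11.01, 11.09 and 11.09 in young heads. The aged arrays were all lower, by -0.20 ± 0.06, which did not pass (limma adjusted p = 0.0615, interval -0.35 to -0.05). It passed in 4 of the 14 alternatives, among them with arrays centred on their medians (-0.25, adjusted p = 0.0460).

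Gs2 (CG1743), the cytosolic glutamine synthetase gene, stood at 12.13, 12.09 and 11.93 in aged heads, against 12.51, 12.45 and 12.34 in young heads. The ages did not overlap, and aged replicate 3 was the lowest array. The gene fell by 0.38 on the log2 scale (SE 0.08, limma adjusted p = 0.0163, interval -0.57 to -0.19). The call was kept whichever single array was left out (adjusted p up to 0.0496) and lost without young replicate 2 and aged replicate 3 together (-0.31, adjusted p = 0.0838).

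Gdh (CG5320), the mitochondrial enzyme that oxidises glutamate, stood at 11.59, 11.53 and 11.53 in aged heads, against 12.30, 12.12 and 12.25 in young heads. Of the 8 genes it had the lowest difference, -0.67 ± 0.07 (limma adjusted p = 0.00131, interval -0.84 to -0.50), and the gap between the ages was far wider than the spread in either. The difference lay between -0.72 and -0.63 in the 14 alternatives, all of which it passed (adjusted p up to 0.00953).

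**Figure D2:**
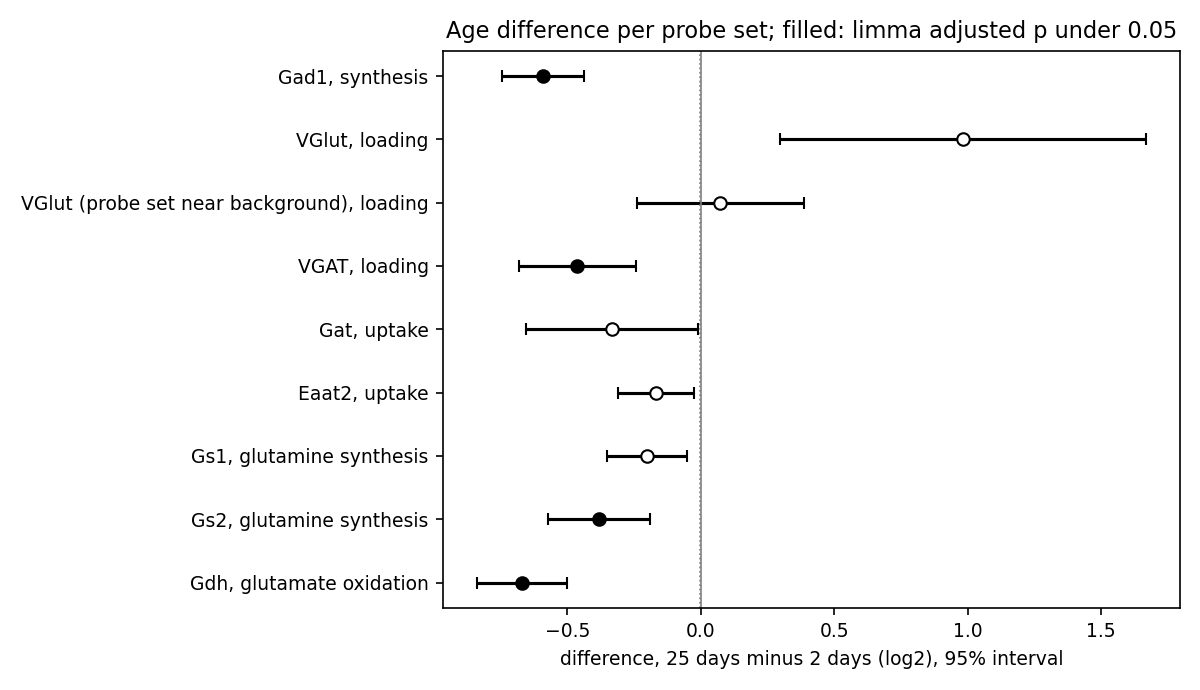
Difference between 25-day and 2-day heads at each probe set (log2, points) with its 95% interval (bars) from limma; filled points passed after adjustment over all probe sets, and the dotted line is the median of all named genes. Gad1, VGAT, Gs2 and Gdh lie left of 0 and passed, while VGlut lies right of 0 with the widest interval.

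At 8 of the 9 probe sets the arrays of the ages did not overlap, 7 with aged heads lower and 1 with aged heads higher. Among all probe sets 40.8% did not overlap, 19.2% with aged heads lower and 21.7% with aged heads higher. The levels of the 8 genes, read through their brighter probe set, were all above the median of all probe sets. The probe sets of Gad1, Gat and Gs1 carry the suffix _s_at, which Affymetrix gives where probes can match more than 1 gene, so a share of signal from a related gene cannot be told apart from theirs.

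The question of neuronal synthesis and loading against uptake and glutamine synthesis was described with the mean over genes of each array's difference from the young mean. No test was made on these scores, since the genes were chosen with results known. For Gad1, VGlut and VGAT together it was 0.11, -0.0039 and -0.18 on the aged arrays, against 0.23, -0.23 and 0.00025 on the young arrays. The ages overlapped, because VGlut lay opposite to the GABA genes. For Gat, Eaat2, Gs1 and Gs2 it was -0.21, -0.30 and -0.30 on the aged arrays, against 0.09, -0.03 and -0.06 on the young arrays. The ages could not overlap here, since each of these genes by itself had every aged array below every young array. Of these genes only Gs2 passed. The mean shift was -0.02 for the neuronal genes and -0.27 for the uptake and glutamine genes. The neuronal value changed sign to 0.06 without aged replicate 3 and to 0.09 without young replicate 1.

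**Figure D3:**
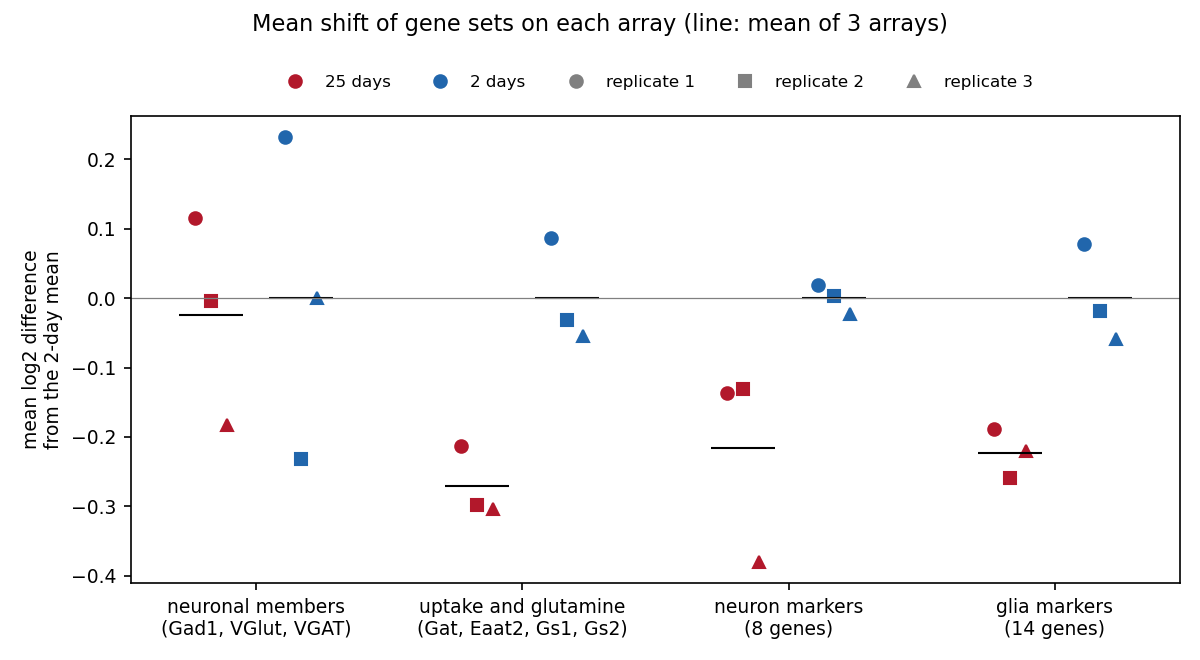
Mean log2 difference of each array from the mean of the 2-day arrays, for the neuronal genes, the uptake and glutamine genes, and the lists of neuron and glia markers; symbols mark the replicate and lines the mean of 3 arrays. The 25-day arrays lie below the 2-day arrays in all sets but the neuronal genes, where they overlap.

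Of 4 pairs planned within arrays, the 2 with Eaat1 could not be computed. Gad1 minus Gat was 2.25, 2.41 and 2.31 in aged heads, against 2.23, 2.79 and 2.72 in young heads, so the ages overlapped (change -0.26, two-sided exact permutation p = 0.40, 0.40 adjusted over the 2 pairs). Gs1 minus Gs2 was -1.25, -1.28 and -1.04 in aged heads, against -1.50, -1.36 and -1.26 in young heads, and overlapped as well (change 0.18, two-sided exact permutation p = 0.20, adjusted 0.40). With 3 arrays against 3 no such p can fall below 0.10, so unequal change within a pair was neither shown nor set aside. That Gs2 passed and Gs1 did not is therefore no evidence that they differ.

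Facts of the whole series bear on these values. Of 18769 probe sets, 2438 (13.0%) were higher and 1633 (8.70%) lower in aged heads, 21.7% together, or 1859 higher and 1951 lower with arrays centred on their medians. Array medians lay between 4.85 and 4.93. As a sign of RNA or labelling quality, the 3' minus 5' signal of control RNAs was 1.26 to 1.32 on aged arrays against 1.74 to 1.95 on young arrays for fly transcripts, and 0.86 to 1.02 against 1.75 to 2.05 for bacterial spike-ins. Its part in the results was not tested.

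Markers of neurons and glia moved with age as well. For scale, 10.7% of all named genes passed lower and 15.8% higher in aged heads. Of 10 neuron markers 8 were measured, all above the median level; 5 fell, 0 rose and 3 did not pass, with a median of -0.32. Their summed linear level was 9973 to 11478 on aged arrays and 12676 to 13341 on young arrays. This sum weights the brightest probe sets most, here those of Snap25 and cpx, and does not show a fall of every marker. Those that fell were brp of the active zone (-0.44 ± 0.12, limma adjusted p = 0.0382), the RNA-binding protein gene fne (-0.41 ± 0.10), the complexin gene cpx (-0.38 ± 0.09), Snap25 (-0.32) and Appl (-0.32). Other probe sets of brp stood at 0.05 to 0.46 and that of cpx at 0.17, none of which passed, and with the mean of their probe sets neither gene passed (brp 0.04, cpx -0.10). With any one array left out only 0 to 3 neuron markers passed lower, and up to 1 passed higher. The pan-neuronal gene elav was -0.09 ± 0.07 apart between the ages without passing (adjusted p = 0.391), and nSyb, of the synaptic vesicle fusion machinery, was 0.30 ± 0.11 higher without passing (0.0984).

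Of 14 glia markers, all measured and above the median level, 5 fell, 1 rose and 8 did not pass, with a median of -0.04. The shares over all named genes were 10.7% lower and 15.8% higher. Their summed linear level, which again weights the brightest probe sets most, was 10185 to 10641 on aged arrays and 11389 to 12206 on young arrays. The lipid phosphatase gene wun2 (-0.97 ± 0.07, limma adjusted p = 2.91e-04), nrv2, for a subunit of the sodium pump (-0.83 ± 0.08), and Mdr65, a pump of the blood-brain barrier (-0.76 ± 0.07), fell most. The amine-conjugating enzyme gene e (ebony) fell by 0.67 and alrm, which marks the astrocyte-like glia that express Gat, by 0.48 (SE 0.06, adjusted p = 0.00292), while Gli, of the barrier's junctions, rose by 0.42. The call of e was lost whichever aged array was left out. The glial identity gene repo differed by -0.03 ± 0.07 (adjusted p = 0.819). The part of these marker shifts in the differences of the transmitter genes was not tested.

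Markers of other head tissues went several ways, in a series where 10.7% of named genes passed lower and 15.8% higher in aged heads. Of 5 photoreceptor markers measured, 1 fell, the light-activated channel gene trp (-0.33), which no longer passed when any array other than young replicate 1 was left out. Of 7 fat body markers 0 passed, with an unadjusted limma p under 0.05 for 0, and Lsd-1, which coats lipid droplets, had the smallest p (0.27, adjusted p = 0.154). The young arrays differed widely in yolk protein genes, which the fat body of female flies expresses: Yp1 stood at 6.05, 6.47 and 5.87 in aged heads, against 4.02, 7.76 and 10.17 in young heads. Yp2 stood at 4.21, 4.45 and 4.24 in aged heads, against 3.95, 5.24 and 8.54 in young heads. The part of this spread in the results was not tested. Without young replicate 1, Lsd-1 passed as higher (0.39, limma adjusted p = 0.0208) and Yp1 as lower (-2.83, adjusted p = 0.0291) in aged heads. Of 6 muscle markers 4 fell, Act88F (-2.17), Mlc2 (-1.39), Tm2 (-1.32) and up (-1.03), and of 6 haemocyte markers 4 rose, srp (0.75), Hml (0.69), NimC1 (0.60) and eater (0.42), while Pxn fell by 0.90. The calls of NimC1 and eater were each lost without aged replicate 3, that of NimC1 also without aged replicate 1 or young replicate 3, and that of eater also without aged replicate 2.

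Enzymes that make or use up glutamate, GABA and proline, which is made from and broken down to glutamate, mostly fell where they passed. Of 14 such genes 12 were measured, of which 5 fell, 1 rose and 6 did not pass. Their median was -0.19, against -0.0031 over all genes. Of all named genes, 10.7% passed lower and 15.8% higher. The proline dehydrogenase gene slgA stood at 10.67, 10.65 and 10.61 in aged heads, against 11.06, 11.09 and 11.19 in young heads, a fall of 0.47 on the log2 scale (SE 0.07, limma adjusted p = 0.00329). P5CDh1, which completes the path from proline to glutamate, fell by 0.39 (SE 0.07, adjusted p = 0.00812), and P5cr-2, which works in the other direction, towards proline, rose by 0.43 (SE 0.09, adjusted p = 0.0124), a call lost without aged replicate 1 or 2. With any one array left out, 3 to 4 genes of the list were lower and 0 to 2 higher.

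The GABA shunt breaks GABA down to succinate in 2 steps. Its second enzyme gene, Ssadh, stood at 10.15, 10.20 and 10.09 in aged heads, against 10.57, 10.43 and 10.53 in young heads (-0.37 ± 0.07, limma adjusted p = 0.0106). Its first, Gabat, fell by 0.21 (SE 0.06, adjusted p = 0.0495), a call that was lost whichever array was left out. P5CDh2, which lay near background at both ages, fell by 0.29, and its call was lost when any array other than young replicate 1 was left out. The aspartate aminotransferase genes Got1 and Got2, which move nitrogen between glutamate and aspartate, were 0.23 ± 0.07 and 0.20 ± 0.06 higher in aged heads without passing (adjusted p = 0.0570 and 0.0689).

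Of 12 genes listed for enzymes that spend glutamine, all measured, 2 rose, 1 fell and 9 did not pass, with a median of 0.16. The share that passed was close to the 26.5% over all genes. The list also holds Gclc and Gclm, whose enzyme uses glutamate and not glutamine. Neither passed (limma adjusted p = 0.311 and 0.141). Pfas, of purine synthesis, stood at 9.57, 9.55 and 9.72 in aged heads, against 8.91, 9.02 and 8.96 in young heads (0.65 ± 0.07, limma adjusted p = 0.00148). Nadsyn, of NAD synthesis, rose by 0.43 (SE 0.09), and its call was lost without aged replicate 1 or 3. Gfat1, which starts the hexosamine path, fell by 0.26 (SE 0.07, adjusted p = 0.0428); its other probe set stood at 0.06 and the call was lost when any array other than young replicate 2 was left out.

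**Figure D4:**
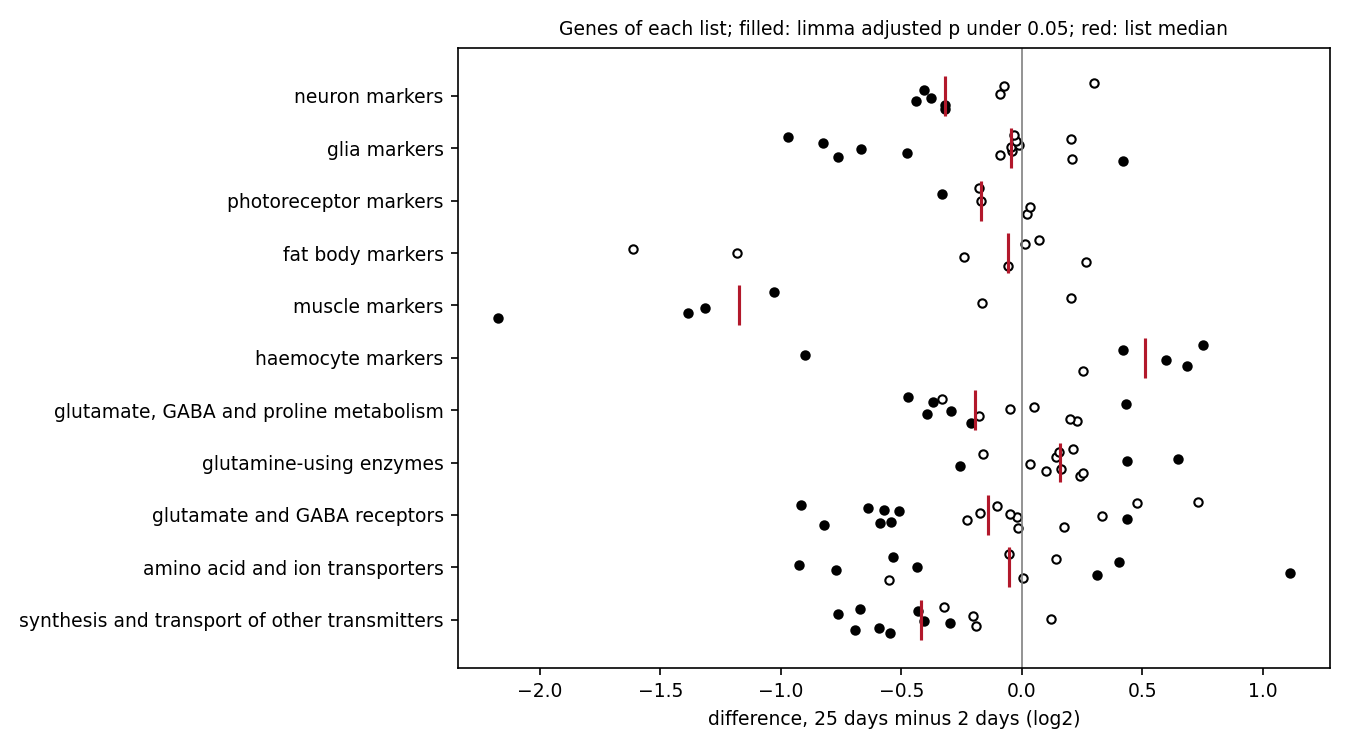
Difference between 25-day and 2-day heads for each measured gene of the marker and pathway lists (log2, 1 point per gene); filled points passed in limma after adjustment over all probe sets and red lines are list medians. Filled points of the receptor list and of the list for other transmitters lie almost all left of 0, and those of the haemocyte list mostly right.

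Receptors for GABA and glutamate that passed were lower in aged heads, with 1 exception. Of 20 receptor genes 18 were measured, of which 7 fell, 1 rose and 10 did not pass, with a median of -0.14. Among all named genes 10.7% passed lower and 15.8% higher. Of the 18, 5 lay below the median level of all probe sets, near background, and these 5 did not pass. Rdl, the subunit of the main GABA-gated chloride channel, stood at 8.22, 8.36 and 7.90 in aged heads, against 8.92, 9.13 and 9.18 in young heads, a 1.89-fold fall (-0.92 ± 0.13, limma adjusted p = 0.00344). The metabotropic GABA receptor gene GABA-B-R3 fell by 0.82 (SE 0.09, adjusted p = 0.00145) and the NMDA receptor gene Nmdar1 by 0.64 (SE 0.08, adjusted p = 0.00231). The exception was GluRIIA, known as a receptor subunit of the fly's neuromuscular junction, which rose by 0.44 (SE 0.12, adjusted p = 0.0354), a call lost without aged replicate 1 or 3 or young replicate 1 or 2.

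Transporters that work beside transmitter uptake were divided. Of 13 genes 11 were measured, of which 3 rose, 4 fell and 4 did not pass, with a median of -0.05. Over all named genes the shares were 15.8% higher and 10.7% lower. The potassium and chloride cotransporter gene kcc, which keeps chloride low in neurons so that GABA can inhibit them, stood at 11.08, 11.05 and 10.90 in aged heads, against 11.93, 11.89 and 11.98 in young heads (-0.92 ± 0.07, limma adjusted p = 4.16e-04). The gene gb (genderblind), for a glial exchanger that helps set the level of glutamate outside cells, fell by 0.77 (SE 0.07, adjusted p = 5.17e-04), and sbm and ine fell by 0.54 and 0.43. NAAT1, a sodium-driven transporter of nutrient amino acids, stood at 8.77, 8.85 and 8.89 in aged heads, against 8.07, 7.50 and 7.60 in young heads, and rose 2.16-fold (1.11 ± 0.14, adjusted p = 0.00248). The amino acid transporter genes mnd and JhI-21 rose by 0.40 and 0.31; JhI-21 did not pass without aged replicate 1 or 2.

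For other transmitters, 12 of 13 genes of synthesis and transport were measured, of which 8 fell, 0 rose and 4 did not pass. Among all named genes 10.7% passed lower and 15.8% higher. At an unadjusted limma p under 0.05 there were 10 lower and 0 higher, where 41.2% of all genes reach that p. With any one array left out, 6 to 8 genes of the list passed lower. The calls of SerT and Hdc were each lost in 7 of the 14 alternatives. With the mean of its probe sets Vmat differed by -0.06 without passing. The median was -0.42. The acetylcholine genes VAChT and ChT fell by 0.76 and 0.69, and ple, which encodes tyrosine hydroxylase, by 0.67. The differences of Gad1 and VGAT, -0.59 and -0.46, lay within the range of these genes, and no test of a difference between the lists was made.

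**Figure D5:**
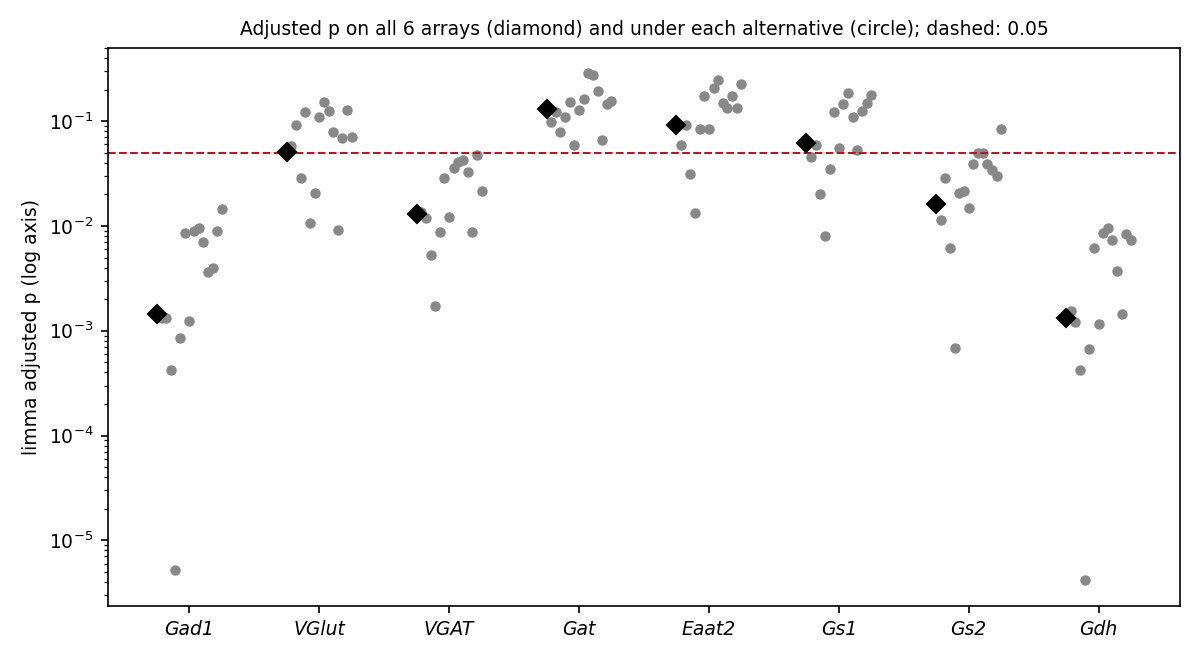
Adjusted p of limma for each gene on a log axis, on all 6 arrays (diamonds) and under each alternative way of processing (circles), with the threshold of 0.05 dashed. Gad1, VGAT and Gdh stay below the line throughout, Gs2 crosses it once, Gat stays above it, and VGlut, Eaat2 and Gs1 lie on both sides.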

How the data were processed

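Biotin-labelled cRNA from total RNA of fly heads was read on Affymetrix arrays. The deposited values are log2 RMA levels per probe set; RMA and limma are named in the submitters' processing notes, with its version and options not given in the sources used here. This method scales arrays to a common distribution, which sets aside any change in total RNA. Of 18952 probe sets, 183 controls were left out. The probe table gives 1 symbol for 13647 tested probe sets, several for 402 and none for 4720; 13544 matched RefSeq (Release 6 plus ISO1 MT) by gene identifier. A gene is read through its probe set with the highest mean.

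The age effect was fitted with limma 3.58.1 (R 4.3.3, all 6 arrays, no covariates) and adjusted by Benjamini-Hochberg over 18769 probe sets. A check on simulated data was also made, but its outcome is not given here and no result rests on it. The members and lists were chosen with earlier results of these data known. Lists are described by counts and medians, without a list test. The naming rule takes all members and the 3 most changed genes of each list that passed (or else the 1 with the smallest p). It also takes the 3 genes most like Gad1, but not those like Eaat1, whose symbol no probe set carries. Other list genes named were chosen after their values were seen. Replicate numbers are shared between the ages without a stated pairing, so arrays were not paired in the main fit. Deviations of same-numbered arrays correlated at r = 0.103, -0.0195 and -0.0556. With 3 arrays per age these values cannot decide whether the arrays were paired. VGlut passed with the replicate block (limma adjusted p = 0.0207). The 14 alternatives cover scaling, a filter on dim probe sets, the variance model, the block, the probe set rule and arrays left out.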

Additional observations from a re-analysis of the deposited data

How the results depend on the processing

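Of the 8 genes, 4 were lower in aged heads, and the alternatives gave 3 to 6; the lowest count came without young replicate 2 and aged replicate 3 together. None was higher, or 1 (VGlut) with the filter at the median level, with array weights and with the replicate block, and 0 to 1 with each array left out in turn. The replicate block moved the calls over all probe sets to 2032 higher and 1311 lower, and not every array correlated best with its own number. With each array left out in turn, 1377 to 2371 probe sets were higher and 925 to 1659 lower, and with both arrays left out 1462 and 1030. Without aged replicate 1 they numbered 1377 and 925, and without aged replicate 2 1460 and 972. The mean shift of Gad1, VGlut and VGAT ranged from -0.14 to 0.092 with an array left out, and that of Gat, Eaat2, Gs1 and Gs2 from -0.30 to -0.23. Some differences changed sign. That of brp, which had passed as lower, stood at 0.044 with the mean of its probe sets and did not pass (adjusted p = 0.794). The others had not passed: the dim VGlut probe set ranged from -0.045 to 0.20 with an array left out and stood at -0.073 without both arrays. With an array left out repo ranged from -0.046 to 0.0075, and it stood at 0.0079 without both; Yp1 ranged from -2.83 to 0.24 with an array left out. The cause of these changes was not tested. The within-array pairs kept their direction in all alternatives run, and the 2 pairs with Eaat1 were not run. The number of arrays limits precision, and the dim VGlut probe set is limited by signal over background.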

Other observations

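Of 7536 other genes at or above the median level, the 3 whose values over the 6 arrays were most like those of Gad1 were nwk, which encodes a membrane-shaping protein of synapses (Pearson's r = 0.9995), CG31064 (0.9994) and ksh (0.999). nwk stood at 10.39, 10.38 and 10.28 in aged heads, against 10.87, 10.93 and 10.94 in young heads. These correlations are a description over 6 arrays that share the split by age, and 621 genes had an r above 0.95. With the mean of its probe sets CG31064 differed by -0.12 and did not pass (limma adjusted p = 0.359).

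A glutamate receptor gene was also measured higher in aged heads. The metabotropic glutamate receptor gene mGluR, chosen after its values were seen, averaged 6.32 ± 0.43 in aged heads and 5.59 ± 0.41 in young heads (SD, n = 3 arrays each), 0.73 ± 0.26 higher without passing (limma adjusted p = 0.0883). Its ages overlapped, at 6.60, 6.54 and 5.82 in aged heads against 6.05, 5.40 and 5.31 in young heads. Young replicate 1 was the highest and young replicate 2 the lowest young array for VGlut (0.64 above and 0.58 below the young mean), Gat (0.31 above and 0.19 below), VGAT (0.09 above and 0.14 below) and Gdh (0.08 above and 0.10 below). Gad1 and Eaat2 each lay between -0.04 and 0.02 from their mean on the young arrays.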
